A study of Mus musculus with 6 samples.

Results

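C2C12 myoblasts hold 259 gene-poor 500 kb bins that lay in the A compartment before and after differentiation to myotubes and again after AraC treatment. A bin was counted as gene-poor when it held the transcription start site (TSS) of 1 or 2 protein-coding genes, and as staying in A when PC1 was above 0 in all 3 conditions. PC1 is the first principal component of the correlation coefficients between the bins of a chromosome, with its sign set so that it was positive with TSS density. There were 1309 gene-poor bins among the 4727 autosomal bins with a PC1 in all 3 conditions, so the 259 bins were 19.8% of the gene-poor bins (exact binomial 95% interval 17.7 to 22.0). PC1 above 0 in all 3 conditions was found in 1478 of the 4727 bins, or 31.3%. The bins were chosen by the 3 values of PC1 and by the TSS count, which are given as a description with no test.

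C2C12 is a clonal mouse myoblast line that was derived from the injured thigh muscle of C3H mice and that fuses into myotubes when serum is reduced. Hi-C, which joins and sequences DNA ends that lie close together in the cross-linked nucleus, was carried out after HindIII digestion on proliferating sub-confluent myoblasts, on myotubes at day 3 of differentiation, and on myotubes that received AraC at 10 µg/mL and were harvested at day 7. AraC is a cytidine analogue that kills cells which copy their DNA, and it was given to deplete the myoblasts that remain between myotubes, so day and treatment cannot be told apart in that condition. The 2 biological replicates of each condition were pooled by the authors before the correlation matrices were made. There was therefore 1 matrix per condition, no replicate error could be obtained and no difference between conditions was tested.

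Chromosomes of mammalian nuclei are divided into A compartment segments, which are gene-rich, transcribed and early replicating, and B compartment segments, which are gene-poor, largely silent and often held at the nuclear lamina. Bins of a compartment contact each other more than they contact the other compartment, within a chromosome and between chromosomes. Gene density is the usual guide to which sign of PC1 is A, and the bins described here are those where that guide and the compartment part ways.

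A pair of promoter sets shows what the DNA looks like at the starts that stayed in A and at the starts that stayed in B. Each promoter runs from 250 bases before to 50 bases after the start of the gene in GENCODE vM21, is written 5′ to 3′ on the strand of the gene from the GRCm38 assembly of RefSeq, and has CG dinucleotides in capitals. The first 3 lie in the bins with the highest mean scaled PC1 among bins of 1 TSS, with at most 1 per chromosome. Each is taken at the 5′ end of the only protein-coding gene that starts in its bin, and other transcript starts of that gene are left out. They are Serp2 (chr14:76556840-76557139, minus strand), a small protein of the endoplasmic reticulum stress response, Runx1 (chr16:92826100-92826399, minus strand), a runt-domain transcription factor, and Mkln1 (chr6:31398485-31398784, plus strand), which encodes muskelin.
Serp2: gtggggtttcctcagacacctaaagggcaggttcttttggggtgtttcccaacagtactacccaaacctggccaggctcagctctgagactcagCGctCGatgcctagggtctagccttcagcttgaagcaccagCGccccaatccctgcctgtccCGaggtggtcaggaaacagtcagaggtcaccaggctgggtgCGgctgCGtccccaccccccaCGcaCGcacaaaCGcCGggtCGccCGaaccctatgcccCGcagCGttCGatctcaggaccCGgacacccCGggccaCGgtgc
Runx1: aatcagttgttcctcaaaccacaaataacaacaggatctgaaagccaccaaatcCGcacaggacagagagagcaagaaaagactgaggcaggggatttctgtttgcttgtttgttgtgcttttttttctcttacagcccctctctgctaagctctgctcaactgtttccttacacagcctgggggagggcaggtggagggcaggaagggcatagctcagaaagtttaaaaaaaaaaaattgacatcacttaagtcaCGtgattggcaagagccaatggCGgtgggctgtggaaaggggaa
Mkln1: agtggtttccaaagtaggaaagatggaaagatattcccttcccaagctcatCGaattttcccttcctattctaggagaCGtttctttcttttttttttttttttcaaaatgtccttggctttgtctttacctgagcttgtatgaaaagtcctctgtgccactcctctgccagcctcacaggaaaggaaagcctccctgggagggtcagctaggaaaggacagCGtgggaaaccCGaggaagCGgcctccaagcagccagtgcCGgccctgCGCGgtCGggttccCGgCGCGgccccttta

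The other promoters are of the only genes that start in bins among the 3 with the lowest mean scaled PC1. They were picked in the same way from bins of 1 TSS below 0 in all 3 conditions. They are Spock1 (chr13:57908283-57908582, minus strand), the proteoglycan testican-1, and Vrk1 (chr12:106009978-106010277, plus strand), a nuclear serine/threonine kinase.
Spock1: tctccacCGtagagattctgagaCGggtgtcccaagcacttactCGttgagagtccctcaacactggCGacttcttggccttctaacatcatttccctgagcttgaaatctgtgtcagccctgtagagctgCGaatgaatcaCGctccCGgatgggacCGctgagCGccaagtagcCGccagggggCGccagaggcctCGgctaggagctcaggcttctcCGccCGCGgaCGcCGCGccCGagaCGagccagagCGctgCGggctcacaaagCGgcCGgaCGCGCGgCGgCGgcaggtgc
Vrk1: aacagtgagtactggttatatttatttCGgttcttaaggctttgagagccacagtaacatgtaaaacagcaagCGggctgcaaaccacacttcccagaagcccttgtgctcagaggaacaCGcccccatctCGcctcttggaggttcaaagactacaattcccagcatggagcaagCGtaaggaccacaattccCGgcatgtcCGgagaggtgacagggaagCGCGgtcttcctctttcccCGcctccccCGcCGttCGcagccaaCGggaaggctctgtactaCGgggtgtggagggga

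The Runx1 promoter held 3 CG and a GC content of 46.7%, the lowest of the 5 on both counts, although its bin had scaled PC1 values of 2.61, 2.54 and 2.62 (PC1 over its standard deviation, in myoblasts, day 3 myotubes and AraC-treated myotubes). The Spock1 promoter held 29 CG and a GC content of 64.0% in a bin at -1.87, -1.64 and -1.35. A promoter was called CpG-rich when its observed over expected CpG was 0.6 or more and its GC content was 50% or more. By that definition Serp2, Mkln1 and both promoters in B were CpG-rich and the Runx1 promoter was not, so in these 5 the promoter did not separate the compartments.

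Over all promoters the difference was small. In the 259 bins 208 of 384 promoters were CpG-rich, or 54.2% (exact binomial 95% interval 49.0 to 59.2), against 514 of 1184, or 43.4% (40.6 to 46.3), in the gene-poor bins that stayed below 0. The share was 51% in bins of 3 or more TSSs that stayed in A and 43.3% over all 20360 autosomal protein-coding genes. The difference of 10.8 percentage points between the gene-poor sets was 6.71 in bins of exactly 1 TSS and 2.44 when each transcript start was counted in place of each gene. The median promoter held 18 CG in the gene-poor bins of A and 12 in those of B. The hexamer CAGCTG, an E-box that reads the same on both strands, was present in 14.3% of the promoters of the 259 bins, in 15.4% of those in gene-poor B and in 15.6% of all.

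The share of bins that stayed in A went up with the number of TSSs, in the direction that the rule for the sign of PC1 sets. It was 8.8% of bins without a protein-coding TSS, 17% of bins with 1 TSS (134 of 786) and 23.9% of bins with 2 TSSs (125 of 523). Bins of 3 or 4 TSSs stayed in A in 34.4% of cases, bins of 5 to 9 in 51.5%, and bins of 10 or more in 63.2%. The gene-poor bins thus sat near the lower end of a gradual scale and not apart from it. Of the other gene-poor bins, 874 (66.8%) stayed below 0 in all 3 conditions and 176 (13.4%) had a mixed sign.

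The gene-poor bins of A were unevenly spread over the autosomes. Chr 13 held 29 of them, or 39.2% of its 74 gene-poor bins, and chr 18 held 22, or 35.5% of its 62. Chr 3 had 25 and chr 10 had 23. At the other end, chr 11, a gene-dense chromosome, had 1 of 42 gene-poor bins in A (2.38%), which held Rbfox3 and Enpp7. On chr 13 the sign of PC1 was weakly set by TSS density, with r between PC1 and TSS count of 0.122, 0.057 and 0.054 for myoblasts, day 3 myotubes and the AraC condition. Without chr 13 there were 230 such bins, or 18.6% of the gene-poor bins.

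**Figure D1:**
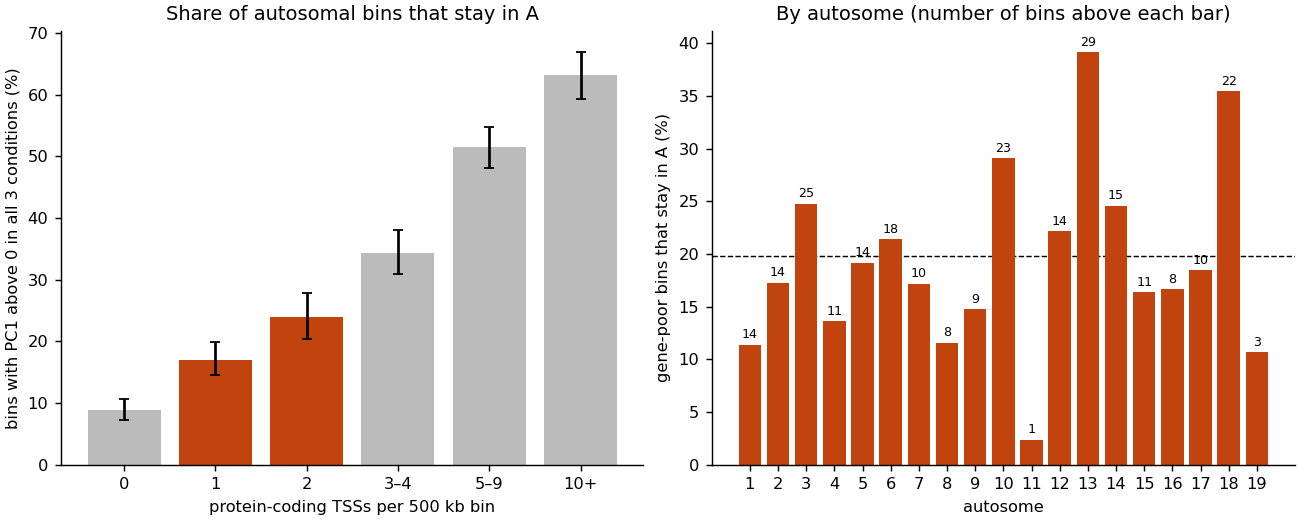
Left, percentage of autosomal 500 kb bins with PC1 above 0 in all 3 conditions by the number of protein-coding TSSs, with exact binomial 95% intervals as bars and the gene-poor classes in red; the share goes from 8.8% without a TSS to 63.2% with 10 or more. Right, percentage of gene-poor bins that stayed in A on each autosome, with their number above the bar and the share over all autosomes (19.8%) as a dashed line; chr 13 and chr 18 stand highest and chr 11 lowest.

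PC1 was divided by its standard deviation on the chromosome in each condition, so that chromosomes and conditions could be set side by side. Over the 259 bins, scaled PC1 had a median of 0.875 in myoblasts, 0.931 in day 3 myotubes and 0.947 with AraC. Bins of 3 or more TSSs that stayed in A had medians of 1.32, 1.39 and 1.40, and gene-poor bins that stayed in B had -0.681, -0.719 and -0.722. The gene-poor bins of A were therefore on average less far into A than gene-rich bins, with a wide overlap, since their upper quartiles (1.42, 1.53 and 1.56) exceeded the gene-rich medians.

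The bins deepest in A, taken at most 1 per chromosome, were deep in all 3 conditions. The Serp2 bin on chr 14 had scaled PC1 values of 2.76, 2.83 and 2.78, in the order myoblasts, day 3 myotubes and AraC-treated myotubes that is kept for all sets of 3 values. The bin of Asb1 and Twist2 on chr 1 had 2.62, 2.54 and 2.43. Twist2 encodes a basic helix-loop-helix protein known to hold back MyoD. The Mkln1 bin on chr 6 had 2.31, 2.38 and 2.53, and the bin of Magi3, a scaffold protein of cell junctions, had 2.24, 2.40 and 2.27 on chr 3. In these 5 bins, that of Runx1 included, the lowest value was 2.24.

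At the threshold the values were close to 0 in a condition at least. Just inside, the bin of Tnc, the matrix protein tenascin-C, had scaled PC1 values of 0.590, 0.349 and 0.0038, the bin of Rgs21 and Rgs18, which act on G protein signalling, had 0.506, 0.247 and 0.0059, and the bin of Tmem167 and the DNA end-joining factor Xrcc4 had 0.369, 0.265 and 0.014. The Csl bin had 0.026, 0.151 and 0.065, and the bin of Slc4a7 and Nek10 had 0.171, 0.191 and 0.028. Just outside, the bin of the zinc finger factor Zeb2 had 0.226, 0.121 and -0.0011, that of the kinase Tnik had 0.455, 0.161 and -0.0029, and that of the neuregulin gene Nrg1 had 0.483, 0.101 and -0.0098. The Scg2 bin had 0.279, -0.0047 and 0.0013 and the bin of AW554918 and Tpgs2 had 0.340, -0.013 and 0.0099. In 6 of these 10 bins, 3 on each side, the scaled value nearest or past 0 was that of AraC-treated myotubes and the myoblast value was the highest.

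The coefficients with bins of other chromosomes gave a related reading. The interchromosomal contrast of a bin was its mean correlation coefficient with bins of 10 or more TSSs on other autosomes minus that with bins of 0 TSSs on other autosomes. It comes from the same matrices as PC1 and followed it closely on every autosome (r from 0.980 to 0.999), chr 13 included, so it is no independent support. In the 259 bins the median contrast was 0.040 for myoblasts, 0.079 for day 3 myotubes and 0.066 with AraC. Gene-poor bins of B had -0.039, -0.104 and -0.080 and gene-rich bins of A 0.077, 0.161 and 0.132. Divided by its standard deviation over autosomal bins, the contrast of the 259 bins had medians of 0.693, 0.652 and 0.674, nearly level over the conditions. It was above 0 in all 3 conditions in 213 of the 259 bins (82.2%), against 29% of all autosomal bins and 0 of 874 gene-poor bins of B, which allows a share of up to 0.421%. On each of the 18 autosomes with at least 3 of the bins, their median contrast was above that of gene-poor B in every condition.

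The bins with the largest contrast were those of Runx1, at 0.144, 0.290 and 0.235, of Asb1 and Twist2, at 0.145, 0.267 and 0.204, and of Sulf2, a heparan sulphate 6-O-endosulphatase, at 0.142, 0.253 and 0.198. The lowest was in the bin of Slc4a7 and Nek10, at -0.010, -0.027 and -0.028. That bin had PC1 above 0 on its own chromosome and correlated on average slightly more with gene-free bins of other chromosomes than with gene-dense bins. The Csl bin (-0.0050, -0.019 and -0.023) was below 0 in all 3 conditions too. The bin of Sv2b and Akap13 had contrasts of 0.00012, -0.019 and -0.020.

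**Figure D2:**
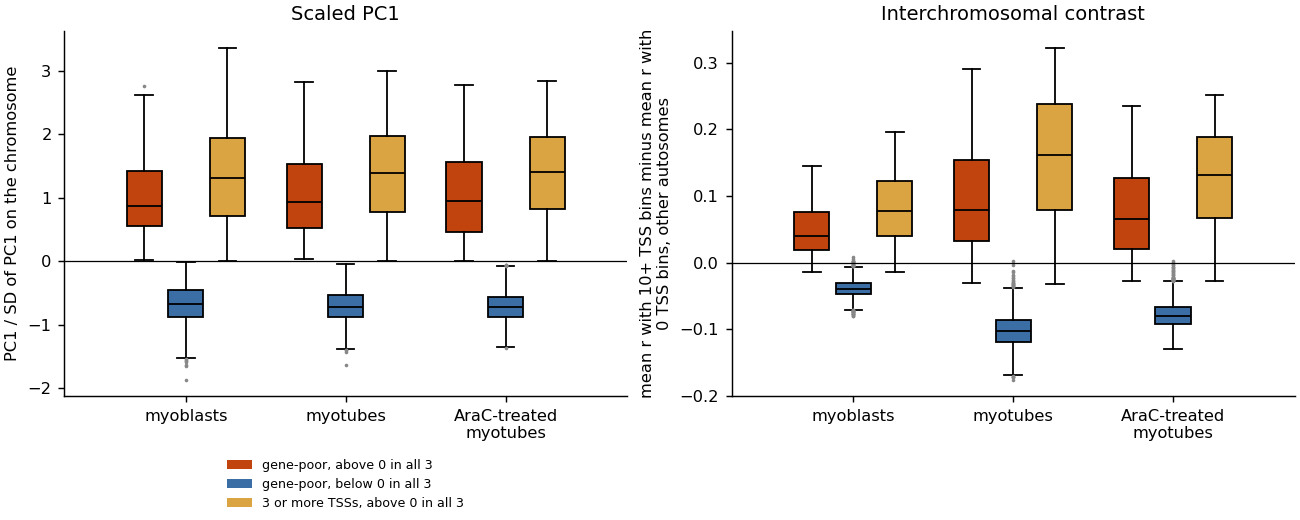
Scaled PC1 (left) and interchromosomal contrast (right) of autosomal 500 kb bins in 3 conditions, as boxes from the lower to the upper quartile with the median as a line, whiskers to 1.5 times the interquartile range and points beyond. Gene-poor bins above 0 in all 3 conditions (red, n = 259) lie between gene-poor bins below 0 (blue, n = 874) and bins of 3 or more TSSs above 0 (yellow, n = 1118) in every condition.

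The question of how differentiation moves these bins within A could only be described. Compared with myoblasts, myotubes had the higher scaled PC1 in 138 of the 259 bins (53.3%, against 48.7% of all autosomal bins) with a median difference of 0.021. Compared with myotubes, AraC-treated myotubes had the higher value in 123 (47.5%, against 47.3%) with a median difference of -0.0087. Unscaled, the myotube PC1 exceeded the myoblast PC1 in 231 of the 259 bins (89.2%), and the same was seen for the size of PC1 in 97.4% of gene-poor bins of B and 95.4% of gene-rich bins of A, so the whole scale of PC1 was wider in myotubes. The standard deviation of PC1 over autosomal bins was 0.859 for myoblasts, 1.61 for day 3 myotubes and 1.36 with AraC. The pooled library was deepest for day 3 myotubes and shallowest for AraC-treated myotubes in the account of the study, and the part of depth in these values was not tested.

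Single bins differed more. The largest difference upwards from myoblasts to myotubes was in the bin of Cdh13, the T-cadherin gene, at 0.657, 1.81 and 1.90. The Gm26897 bin had 0.647, 1.52 and 1.42, and the bin of Pik3r1, the regulatory subunit of phosphoinositide 3-kinase, had 1.06, 1.91 and 2.07. The bin of the kinase gene Dyrk2 had 0.474, 1.27 and 1.51. In these bins the myoblast value was the lowest of the 3, and the values of both myotube conditions lay closer to each other than to it. The bin of Spag17, a protein of the ciliary axoneme, differed at both steps, with 0.059, 0.850 and 1.78.

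The largest difference downwards from myoblasts to myotubes was in the bin of Hibadh, an enzyme of valine breakdown, and the autophagy receptor gene Tax1bp1, at 1.94, 0.690 and 0.646. The bin of the adhesion molecule Nectin1 had 1.03, 0.043 and 0.083, and that of Tsc22d2 1.33, 0.552 and 0.576. The bin of Carmil1, a regulator of actin capping, and Cmah had 0.809, 0.032 and 0.480. It was lowest in myotubes and higher again after AraC treatment, whereas the preceding 3 bins stayed low. In the bin of the phosphatase gene Dusp4 and the tankyrase gene Tnks, scaled PC1 was 1.59, 1.02 and 0.696. Unscaled, that bin had 1.14, 1.55 and 0.883, so it was lower in myotubes than in myoblasts on the scaled value only. The other bins of this group were lower in myotubes unscaled as well.

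At the AraC step the largest difference upwards was in the bin of Podxl, the sialomucin podocalyxin, at 0.168, 0.137 and 1.12. The bin of Gm6657 and Gphn, the receptor scaffold gephyrin, had 0.283, 0.380 and 1.09. The largest differences downwards were in the bin of Farp1 and Stk24 (1.48, 1.12 and 0.564), the bin of Nt5c1b and Rdh14 (1.13, 0.809 and 0.314) and the bin of Atp13a4 and Opa1, which drives fusion of the mitochondrial inner membrane (0.322, 0.894 and 0.403). Only the last of these had its highest scaled value in day 3 myotubes, whereas unscaled PC1 was highest there in each of them.

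Profile correlation was used to compare the partners of a bin between conditions. It was Pearson r between the coefficients of a bin in 2 conditions taken over all the remaining bins of the chromosome. The median over the 259 bins was 0.819 for myoblasts with day 3 myotubes, 0.762 for myoblasts with the AraC condition and 0.926 for the myotube conditions with each other. Gene-poor bins of B had 0.881, 0.847 and 0.951, and gene-rich bins of A 0.923, 0.887 and 0.968. The profiles of the gene-poor bins in A were thus less alike than those of these 2 sets in each pair of conditions. They were not the least alike of all, since the 101 bins without a TSS that stayed in A had medians of 0.738, 0.626 and 0.898, and the 176 gene-poor bins of mixed sign 0.302, 0.077 and 0.682. The study gives a lower correlation between the myoblast replicates than between those of either myotube condition. The median share of variance in PC1 was 39.4% for myoblasts, 71.3% for day 3 myotubes and 63.4% with AraC. The part of such noise in the lower r of pairs with myoblasts was not tested.

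Profile r was below 0 in 8 of the 259 bins for myoblasts with day 3 myotubes (3.09%, against 3.28% of all autosomal bins), in 15 for myoblasts with the AraC condition (5.79%, against 5.8%) and in 6 for the myotube conditions with each other (2.32%, against 1.16%). In gene-poor bins of B it was below 0 in 0, 1 and 0 of 874, and in gene-rich bins of A in 11, 24 and 5 of 1118. The lowest values between myoblasts and myotubes were in the bin of Sh3gl3 and Adamtsl3 (-0.333), the bin of Cxcl12, a chemokine that guides muscle progenitors (-0.311), and the bin of Gramd3 (-0.201). These bins kept the sign of PC1 with values near 0 in a condition, at 0.029 in myotubes for Sh3gl3 and Adamtsl3, 0.127 in myotubes for Cxcl12 and 0.107 in myoblasts for Gramd3. The Tnc bin had r of 0.620 between myoblasts and myotubes and of -0.451 and -0.225 between AraC-treated myotubes and the other 2.

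The bins mostly sat inside longer A segments. Of the 256 bins with a value on both sides, 160 (62.5%) had both neighbours above 0 in all 3 conditions, 80 had 1 such neighbour and 16 (6.25%) had none. Both neighbours stayed in A around 21.4% of all autosomal bins, around 66.4% of gene-rich bins of A and around 1 of 855 gene-poor bins of B. An unbroken run of bins above 0 in all 3 conditions was 7 bins long for the median gene-poor bin of A. Of the 259, 104 (40.2%) shared their run with a bin of 10 or more TSSs. The same values are not given for other bins of A, so neither is read as particular to the gene-poor bins. Neighbouring bins share contacts and genes, so neither the bins nor their binomial intervals are independent.

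The bins were not the immediate neighbours of dense gene clusters as a rule. A neighbour of 10 or more TSSs was present for 30 of 256 bins (11.7%), compared with 5.5% of gene-poor bins of B and 45.2% of gene-rich bins of A. The 2 bins on each side held a median of 14 TSSs in total, against 8 around gene-poor bins of B and 26 around gene-rich bins of A. This count was higher around the bins in A than around those in B on 18 of the 18 autosomes compared. In 63 of 256 (24.6%) both neighbours were themselves gene-poor or gene-free, against 47.4% in B.

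**Figure D3:**
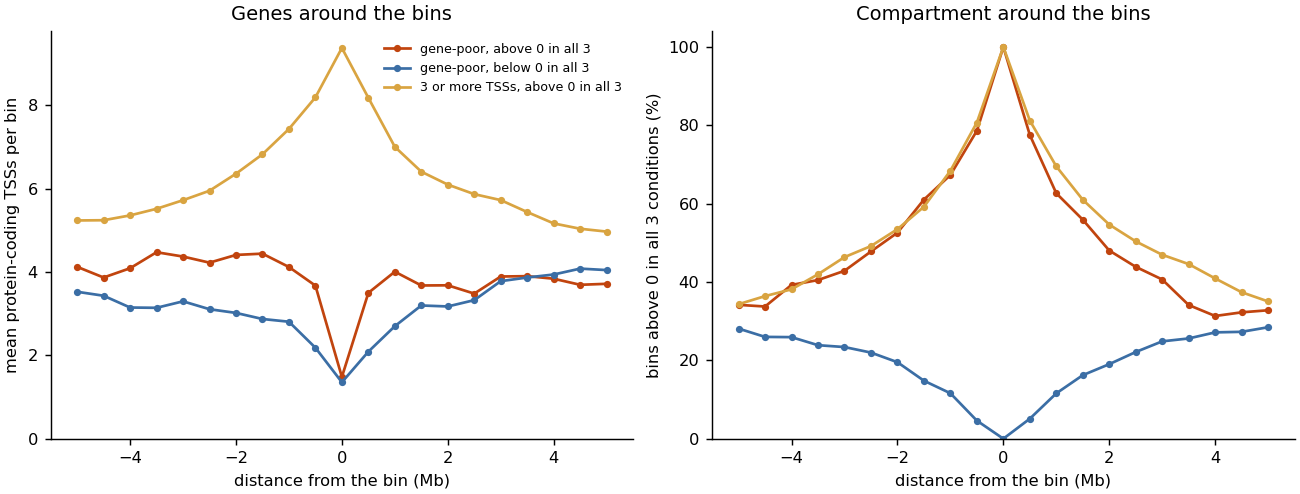
Mean number of protein-coding TSSs per 500 kb bin (left) and percentage of bins above 0 in all 3 conditions (right) against distance from the bin in Mb, for gene-poor bins that stayed in A (red), gene-poor bins that stayed in B (blue) and bins of 3 or more TSSs that stayed in A (yellow). On the left the red line is lowest at the bin itself and lies below the yellow line at every distance. On the right it lies near the yellow line close to the bin (78.6% against 80.7% in the bin before). The 2 sides differ further out. At 4 Mb after the bin the red line is nearer to the blue line (31.3%, against 40.9% for yellow and 27.1% for blue). At 4 Mb before the bin it is nearer to the yellow line (39.3%, against 38.1% for yellow and 25.9% for blue).

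In 42 of the 259 bins (16.2%) the whole A run held no bin of 3 or more TSSs, and 31 of the 135 runs with such a bin were of this kind. The fewest TSSs in the flanks were around Adgrl3, a latrophilin of synaptic adhesion, with 0 TSSs in the 2 bins on each side and scaled PC1 values of 0.422, 0.384 and 0.238. The bin of Inhba, the activin A subunit, had 1 flanking TSS and values of 0.651, 0.553 and 0.146. The Rad23b bin, which holds a nucleotide excision repair gene, had 2 and values of 0.955, 0.792 and 0.994. Zfp608 had 2 flanking TSSs as well and 0.605, 1.08 and 1.05. The bin of Scaf8 and Tiam2, with 3 flanking TSSs and values of 0.059, 0.275 and 0.516, was the first with data on chr 17 and had no neighbour before it.

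For 17 of the bins the A run was 1 bin long. The bin of Utrn, the dystrophin relative utrophin, and Stx11 was among them with scaled PC1 of 0.776, 1.06 and 0.692. The bin of Sgk1, a kinase induced by serum and glucocorticoid, and 1700020N01Rik lay between neighbours that were below 0 in all 3 conditions and had 1.06, 0.661 and 0.387. So did the bin of Larp4b and Dip2c (0.229, 0.666 and 0.246), the bin of Fam49b and Asap1 (0.121, 0.078 and 0.186) and the bin of Slc4a7 and Nek10. The highest mean scaled PC1 among the 17 was that of the Spag17 bin (0.896), described above, followed by the bins of Utrn (0.843) and Sgk1 (0.702).

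Gene-poor bins of A also followed each other. They formed 136 bins that touched no other gene-poor bin of A, 43 pairs, 7 stretches of 3, 2 of 4 and 1 of 8. The stretch of 8 covered chr3:123500001-127500000 with 9 TSSs in 4 Mb. From its start it held Ndst3, then Tram1l1 and 1700006A11Rik, then 1700003H04Rik, Ndst4, Ugt8a, Arsj, Camk2d and Ank2. Ndst3 and Ndst4 modify heparan sulphate, Camk2d is the delta subunit of a calcium/calmodulin-dependent kinase of muscle, and Ank2 encodes an ankyrin of the muscle membrane. Scaled PC1 was highest at Camk2d, with 1.56, 0.958 and 1.02, and lowest at Tram1l1, with 0.437, 0.085 and 0.341. Each of the 8 bins had its highest scaled value in myoblasts and its lowest in myotubes. Without division by the standard deviation, the mean over the stretch was instead lowest in myoblasts. On chr 3 PC1 took up 26.3% of the variance in myoblasts, the least of any autosome, against 60.7% in day 3 myotubes and 55.6% with AraC. The GC content there was 36.6% to 41.5%, below the median of the 259 bins throughout.

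The stretches of 4 lay at chr13:36000001-38000000, with Fars2, Lyrm4, Nrn1, F13a1, Ly86, Rreb1 and Ssr1, and at chr18:4500001-6500000, with Jcad, Svil, Zfp438, Zeb1, Arhgap12 and Kif5b. The mean scaled PC1 of the chr 13 stretch was 1.23, 1.48 and 1.46, and that of the chr 18 stretch was 0.860, 1.31 and 1.15. Both were lowest in myoblasts, where the chr 3 stretch was highest on the scaled value only. The chr 13 stretch belonged to a run of 30 A bins, the longest on the autosomes, whereas the chr 18 stretch was a run of its own with no bin of 3 or more TSSs.

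Sequence was not used by the rule. The median GC content of the 259 bins was 42.7% (order-statistic 95% interval 42.2 to 43.1), between 40.0% in gene-poor bins of B and 45.4% in gene-rich bins of A. It was higher than in gene-poor B on 17 of the 18 autosomes with at least 3 of the bins. Observed over expected CpG had medians of 0.197, 0.167 and 0.223 in the same order. The range of GC was wide, from 36.2% in the bin of the guidance cue gene Sema3a, which had scaled PC1 values of 0.704, 0.390 and 0.286, to 51.7% in the bin of Rbfox3 and Enpp7. Over the 259 bins the Spearman correlation between GC content and mean scaled PC1 was 0.389, and over all 4727 bins it was 0.477, as a description of bins that share chromosomes and base composition. The matrices were not stated to be corrected for GC content, and its part in PC1 was not tested.

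Repeats and noncoding genes differed between the sets as well. Soft-masked repeats took up a median of 27.3% of the gene-poor bins of A, 32.8% of those of B and 28.4% of gene-rich bins of A, and the A bins had less than the B bins on 17 of 18 autosomes. The most repeat-rich was the bin of Vmn2r18 and the replication factor gene Rfc3, at 60.6%. Long noncoding RNA genes started in the 259 bins at a median of 2 per bin, against 1 in gene-poor B and 3 in gene-rich A. No such start was found in 33 of the 259 bins (12.7%) but in 308 of 874 gene-poor bins of B (35.2%). The largest number, 14, was in the Magi3 bin, followed by 12 in the bin of Rreb1 and Ssr1. HindIII sites, where the Hi-C ends are made, had a median of 164 per bin against 170 in gene-poor B and 146 in gene-rich A.

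**Figure D4:**
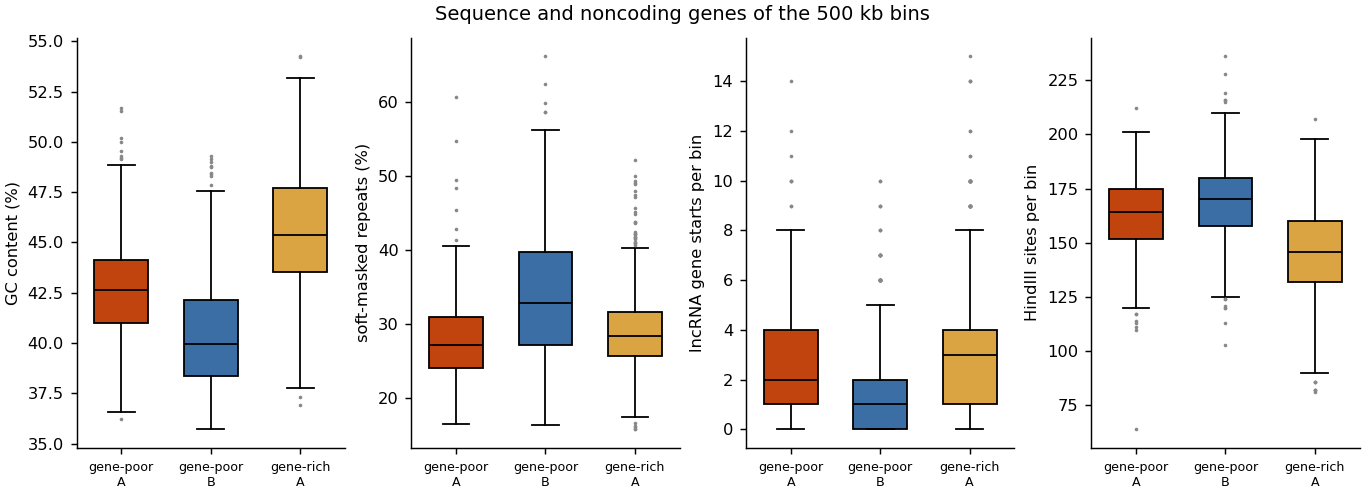
GC content, soft-masked repeats, long noncoding RNA gene starts and HindIII sites per 500 kb bin for gene-poor bins of A (red, n = 259), gene-poor bins of B (blue, n = 874) and bins of 3 or more TSSs in A (yellow, n = 1118), as boxes with the median, quartiles, whiskers to 1.5 times the interquartile range and points beyond. In GC content and HindIII sites the red box lies between the others, while in repeats it lies beside the gene-rich bins.

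The genes themselves were long in both gene-poor sets. The 384 genes had a median length of 86.1 kb, compared with 82.1 kb for the 1184 genes of gene-poor B and 16.9 kb for genes of gene-rich A. A gene over 500 kb started in 22 of the 259 bins (8.49%, exact binomial 95% interval 5.40 to 12.6) and in 127 of 874 bins of B (14.5%, 12.3 to 17.0). Gene bodies covered a median of 39.8% of a gene-poor bin of A and 34.0% of one of B. By autosome the median was higher in A on 10 of the 18 compared and lower on 8. The difference between the medians (A minus B) was 5.79 percentage points, and 0.907 in bins of exactly 1 TSS. The order of the medians turned when each transcript start was counted in place of each gene, with a difference of -8.36 percentage points.

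The longest genes that started in these bins, taken at most 1 per chromosome, differed in PC1. Cdh13 spans 1041 kb and its bin is described above. Zfhx3, on the same chromosome, spans 1019 kb and its bin is given below. Lrmda spans 1036 kb and its bin had scaled PC1 values of 0.704, 0.572 and 0.724. The transcription factor genes Sox5 (954 kb) and Npas3 (823 kb) had 0.475, 0.282 and 0.424, and 1.39, 1.69 and 1.61. Adgrl3 spans 805 kb. Only the bins of Npas3 and Cdh13 were above the median of the 259 bins in both myotube conditions.

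Which kinds of genes occupy the bins was read from 8 lists of genes, against all 1832 protein-coding genes of gene-poor bins, of which 384 (21%) lay in the bins of A. Of 109 listed neuronal adhesion, channel and synaptic genes in gene-poor bins, 2 were in bins that stayed in A (1.83%, exact binomial 95% interval 0.223 to 6.47) and 101 were in bins that stayed in B. The 2 were Adgrl3 and Rbfox3, the neuronal splicing factor NeuN, whose bin had scaled PC1 values of 1.19, 0.863 and 0.943. Of all 1832 genes, 1184 were in bins that stayed in B. Extracellular matrix and adhesion genes had a larger share in A than all genes, with 11 of 28 (39.3%), and were split, with 10 in B and 7 in bins of mixed sign. The other lists are given below, and all these counts are descriptions with no test.

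The matrix list held Fn1, the fibronectin gene, in a bin at 1.27, 0.940 and 0.853, Postn, periostin, at 0.391, 1.08 and 1.21, and Lama2, the laminin chain of the muscle basement membrane, at 0.747, 0.819 and 0.903. Decorin (Dcn) was at 1.42, 1.34 and 1.21 and the adhesion molecule gene Ncam1 at 0.379, 1.05 and 0.790. The others were Tnc and Cdh13, given above, with Spon1, Fermt2, Has2 and Lpp. Of the 11 bins, those of Postn, Ncam1, Cdh13, Lama2, Fermt2 and Has2 had their lowest scaled values in myoblasts, and those of Fn1, Tnc, Dcn, Spon1 and Lpp their highest. The second order need not hold unscaled, where the Tnc bin was at 0.595 in myoblasts and 0.622 in myotubes.

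Of the listed muscle structure genes, 3 of 7 lay in these bins (42.9%) and 2 in bins that stayed in B. Dysf, which encodes the membrane repair protein dysferlin, was alone in a bin at 1.93, 2.35 and 2.47. Tpm1, a tropomyosin of the thin filament, was alone at 1.50, 1.69 and 1.63, and Utrn is given above. Of the listed regulators of myogenesis and fusion, 8 of 22 (36.4%) lay in these bins and 8 in bins that stayed in B. Mef2a, a transcription factor of muscle genes, was at 1.30, 1.57 and 1.53 and the Hippo pathway factor Tead1 at 1.80, 1.71 and 1.70. Eya4, a phosphatase and transcriptional cofactor, was at 0.735, 0.281 and 0.250. Zeb1, a repressor of muscle genes in myoblasts, was at 1.30, 1.83 and 1.44, and Tcf4, an E-protein partner of MyoD, at 1.28, 1.75 and 1.77. Twist2 and Mrtfb, a coactivator of serum response factor, were also among them. By scaled PC1 the bins of Dysf, Tpm1, Mef2a, Zeb1, Tcf4 and Mrtfb were lowest in myoblasts and those of Eya4, Tead1 and Twist2 were highest there. That of Utrn was highest in day 3 myotubes and lowest with AraC. Unscaled, the Twist2 bin was at 2.33, 4.27 and 3.40, lowest in myoblasts.

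Of the listed signalling genes, 9 of 25 (36%) lay in these bins and 10 in bins that stayed in B. Bmp4, a bone morphogenetic protein, was at 1.15, 1.33 and 1.01, Smad2, a transducer of activin and TGF-beta, at 0.927, 1.03 and 0.964, and the Wnt effector Tcf7l2 at 1.13, 1.45 and 1.42. The receptor tyrosine kinase antagonists Spry1 and Spry2 were at 1.52, 1.72 and 1.24 and at 0.830, 0.705 and 0.375. Inhba, Sfrp2, Dkk2 and Fzd1 completed the list. The Smad2 bin had a narrow range, whereas the Spry2 bin was lowest after AraC treatment.

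Of the listed developmental transcription factors, 14 of 67 (20.9%) lay in the bins, a share like that of all genes, and 42 in bins that stayed in B. Besides Runx1 and Sox5 they were Runx2, Foxo1, Klf4, Klf6, Klf7, Pbx3, Lhx2, Bnc2, Zfhx3, Osr1, Sox4 and Gata6. Foxo1, a factor of muscle metabolism and atrophy, was at 1.96, 2.41 and 2.10, and Klf4 was alone in a bin at 1.55, 1.60 and 1.56. Zfhx3, at 0.103, 0.296 and 0.727, lay nearest to B in myoblasts. Of the listed cell cycle genes 4 of 7 (57.1%) were in the bins, namely Cdk6, Rfc3, Kif23 and E2f3, and 3 in bins that stayed in B. Of the innate immune genes 2 of 5 (40%) were in the bins, namely Tlr2 and Cxcl12, and 2 in bins that stayed in B.

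**Figure D5:**
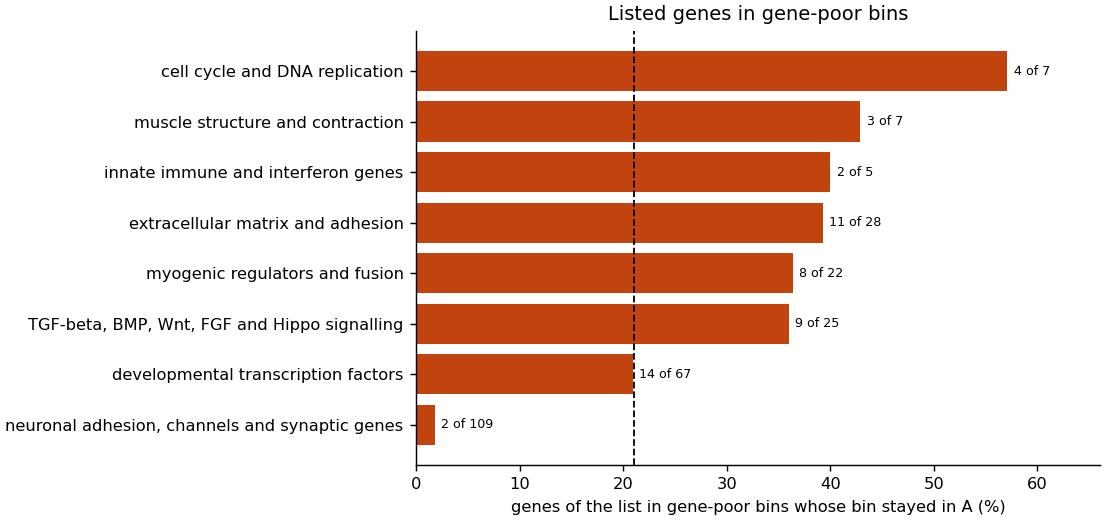
Percentage of the listed genes in gene-poor bins whose bin stayed in A, by list, with the number of genes beside each bar. The dashed line is the share over all protein-coding genes of gene-poor bins (21%); the neuronal list lies at 1.83% and the extracellular matrix list at 39.3%.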

How the data were processed

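The Hi-C libraries of each condition, 2 biological replicates, were mapped to mm10 with bowtie in HiCUP and pooled by the authors, and HOMER (version not given in the sources used here) was used to filter, normalise and correlate interactions in 500 kb bins. The deposited values are scores, namely correlation coefficients between the interaction profiles of 2 bins, and give no counts. The study gives the number of valid read pairs of each pooled library, which was highest for myotubes and lowest for AraC-treated myotubes, and limits its resolution to bins a little smaller than those used here. The coefficients carry no counts, so the precision that depth gives each bin could not be computed. Replicates cannot be separated in the pooled matrices, so no test was made and binomial and order-statistic intervals cover the spread over bins only.

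The 3 matrices gave PC1 for each autosome, from the centred block of bins with a diagonal above 0.5, with NumPy 2.4.6, SciPy 1.17.1 and pandas 2.3.3 in Python 3.11.15. The X and Y chromosomes were not analysed here. TSSs, gene bodies and long noncoding RNA genes were those of GENCODE vM21, with 1 start per gene, and sequence was GRCm38, whose chromosome lengths were checked against the bins of the matrices. Repeats are the lower-case bases of that sequence. The code for PC1 was run on simulated matrices with 1 clear compartment pattern drawn to follow TSS counts. This checks the code and not how reliable the calls are in the real matrices.

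The bins and the gene lists were chosen with earlier results of these data known. The bins named are those with the highest and lowest values of PC1, its differences, profile r, contrast, flanking TSSs and gene length, with at most 1 bin per chromosome in each item, the longest stretches, and bins of listed genes. The isolated bins and those with extreme GC content, repeats and long noncoding RNA starts were chosen after their values were seen. A promoter, a gene and a gene list are not reported here. Alternatives changed the TSS count, the threshold, the component and the partner bins.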

Additional observations from a re-analysis of the deposited data

How the results depend on the processing

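No paired analysis was possible because the replicates of each condition had been pooled before deposit, and for the same reason no replicate could be left out. Of 173 recomputed values, 140 stayed within the interval of the value in the text or within 1.5 times of it. Deriving the component from other autosomes, from scaled columns or from odd- or even-numbered partner bins moved none of the values given here beyond that, and neither did leaving out chr 13, an alternative chosen after seeing the data.

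Counting each transcript start in place of each gene moved the most. It left 89 bins (14.6% of the gene-poor bins), with a median contrast of 0.030 in myoblasts and 0.065 in myotubes, a gene-body cover of 21.6%, a GC content of 41.7% and 44.2% of promoters CpG-rich. The difference in gene-body cover from gene-poor B was then reversed, at -8.36 percentage points in place of 5.79, and that in CpG-rich promoters was 2.44 in place of 10.8, whereas GC content stayed 2.37 points higher. None of the listed neuronal genes of gene-poor bins then lay in the bins of A, which allows up to 6.27%. Asking for an absolute PC1 above the 20th percentile of the chromosome in all 3 conditions left 13.2% of the gene-poor bins, with median contrasts of 0.057, 0.130 and 0.114 and both neighbours in A for 79.7%. Keeping bins of exactly 1 TSS, also chosen after seeing the data, left 134 bins (17.0%), with a median difference in scaled PC1 from myoblasts to myotubes of -0.018 in place of 0.021, a myoblast contrast of 0.034, a cover of 31.2% and a GC content of 41.9%.

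Without division by its standard deviation, PC1 differed by a median of 0.726 from myoblasts to myotubes and of -0.256 from myotubes to AraC-treated myotubes. Contrasts divided by their standard deviation were 0.693, 0.652 and 0.674, which are nearly level over the conditions. With 500 bases on each side of the start, 61.5% of promoters were CpG-rich. Profile r was below 0.2 in 16, 32 and 17 bins in the 3 pairs of conditions. The share of all autosomal bins below 0.2 was not computed, so these counts cannot be called particular to the bins. The pooled libraries differed in depth between conditions and the matrices hold no counts, so its effect on these values could not be computed.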
